A study of Homo sapiens with 16 samples.

Results

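HAMP encodes the peptide hormone hepcidin. Its messenger RNA, and that of genes that sense iron, regulate hepcidin and move iron through liver cells, was followed on 16 expression arrays. The cells were HepG2, a human hepatoma cell line. The members were 10 named genes, selected on knowledge of earlier results from these arrays, among them the difference of HAMP between PD98059 and DMSO in complete medium. That difference is therefore given as a description with no test. A member was measured where a row of the deposited table carried its symbol alone, and 9 of the 10 had such a row, out of 22464 genes tested. TF, which encodes the iron carrier transferrin, shares its row with another symbol and was not analysed here.

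Each of the 4 groups held 4 arrays, which the labels describe as independent incubations. All cells grew in DMEM with serum and received, for 1 h before and 8 h during the incubation, either DMSO, the solvent, or PD98059, which blocks activation of the kinase MEK. The 8 h incubation was in complete medium or in medium without the essential amino acid histidine. The label protocol gives 2.5 uM PD98059, while the treatment labels of some samples carry another unit. All arrays come from 1 tumour line, so the values describe that line and not liver tissue.

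Hepatocytes secrete hepcidin, which binds the iron exporter ferroportin and has it degraded, so that less iron enters the blood. Bone morphogenetic proteins (BMPs) activate SMAD transcription factors, which switch on HAMP together with the general BMP targets ID1 and SMAD7. HFE and transferrin receptor 2 couple this pathway to the iron carried by transferrin, the protease encoded by TMPRSS6 dampens it, and inflammatory cytokines act on HAMP through STAT3.

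The promoter of HAMP is shown because it holds the core of a BMP-responsive element and a STAT motif, and that of ID1, another BMP target, because it held neither in the same window. BMP6, SMAD7, HFE and SLC40A1 also held neither, and TFRC held GGCGCC. Only these windows were searched, so an element farther from a gene's start would not be seen. Both stretches are the 250 bases before the gene's start in RefSeq, build GRCh38.p14, plus strand, 5′ to 3′. HAMP lies on chromosome 19 and the stretch spans chr19:35282278-35282527, and ID1 lies on chromosome 20 with the stretch chr20:31605039-31605288. Capitals mark GGCGCC, the core of the BMP-responsive element, and the STAT motif TTCNNNGAA.
HAMP: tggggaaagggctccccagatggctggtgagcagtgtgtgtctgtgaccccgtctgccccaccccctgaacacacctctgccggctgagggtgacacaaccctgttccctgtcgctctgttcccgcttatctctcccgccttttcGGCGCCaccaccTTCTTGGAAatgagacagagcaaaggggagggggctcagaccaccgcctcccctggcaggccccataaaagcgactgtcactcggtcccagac
ID1: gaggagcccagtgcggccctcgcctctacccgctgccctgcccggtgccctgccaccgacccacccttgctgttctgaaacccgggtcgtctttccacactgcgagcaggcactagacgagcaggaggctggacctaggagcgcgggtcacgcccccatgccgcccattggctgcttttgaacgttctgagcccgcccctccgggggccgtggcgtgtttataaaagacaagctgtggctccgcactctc

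In HAMP, counted back from the start, GGCGCC occupied bases -105 to -100 and TTCTTGGAA bases -93 to -85, and the motifs do not overlap. RefSeq held 9 promoter windows for 7 of the 9 measured members, 3 of them for SMAD7. Searched on both strands, GGCGCC occurred in 2 of the 9 windows, those of HAMP and TFRC, and in 16.4% of all 35116 promoter windows of the same length. TTCNNNGAA occurred in 1 of the 9, that of HAMP, and in 6.57% of all. The E-box CACGTG and the palindromic SMAD motif GTCTAGAC occurred in 0 of the 9 windows, against 6.34% and 0.182% of all. These matches describe letters, not bound sites, and no binding was measured here.

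Hepatocyte markers were present and most markers of other cell types were low. All 10 hepatocyte markers, among them ALB and APOB, averaged above the median gene, and their mean level was 11.11 to 11.34 on every array. All 6 endothelial, all 6 macrophage and the 4 measured erythroid markers averaged below the median gene, while 3 of 6 stellate and fibroblast markers lay above it, ACTA2 highest at 9.97, with DCN at 3.91 and LUM at 3.29. One array, replicate 3 of the PD98059 group in depleted medium, lay farther from its group than any other: over all genes its root mean square distance from the group mean was 0.111 log2 units, where the other 15 arrays had 0.0496 to 0.0760. Over the 9 members it was 0.0873, against 0.0252 to 0.0503. Many results of members and list counts that rest on this array are therefore also given without it. Shares of all genes called are given only for the fit over all arrays, so counts without this array have no background of their own. The 40 differences of list genes named below that rest on this array all stayed called without it, at 0.820 to 1.27 times their size. A value after ± is the fit's standard error unless SD is named, and “called” means an adjusted p below 0.05 in limma, with the Benjamini-Hochberg adjustment over all 22464 genes.

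The messenger RNA of HAMP was higher with PD98059 in both media and rose modestly when histidine was removed. The hormone that it encodes was not measured. On the arrays with DMSO in complete medium, HAMP had log2 values of 10.84, 10.79, 10.90 and 10.87. Without histidine and with DMSO it had 10.99, 11.01, 11.06 and 11.16. All 4 depleted arrays lay above all 4 complete ones. With PD98059 the values were 11.57, 11.72, 11.67 and 11.61 in complete medium and 11.79, 11.74, 11.92 and 11.82 without histidine. The 8 PD98059 arrays all lay above the 8 DMSO arrays, and within each drug the depleted arrays lay above the complete ones without overlap.

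With PD98059 in complete medium, HAMP was higher by 0.80 on the log2 scale, which is 1.74-fold, between group means of 11.64 ± 0.065 and 10.85 ± 0.047 (SD, n = 4). That is the difference known when the genes were chosen, and it has no test. In medium without histidine, on arrays that it did not use, HAMP rose with PD98059 by 0.76 ± 0.045 (1.70-fold, adjusted p = 2.68e-09, limma), and by 0.73 without replicate 3. Histidine depletion raised HAMP by 0.21 ± 0.045 with DMSO (1.16-fold, adjusted p = 0.00148), in a comparison that shares its control arrays with the known one. With PD98059 the rise was 0.17 ± 0.045 (1.13-fold, adjusted p = 0.00714), and 0.14 without replicate 3 (adjusted p = 0.0219). This comparison too shares arrays with the known one, those with PD98059 in complete medium. The response under PD98059 minus that under DMSO, which uses all groups, was -0.03, and -0.07 without replicate 3, with a 95% interval of -0.17 to 0.10 over all arrays, so differences of response within that interval were not resolved. In RNA of whole cultures, fewer cells expressing a gene and less RNA per cell cannot be told apart.

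**Figure D1:**
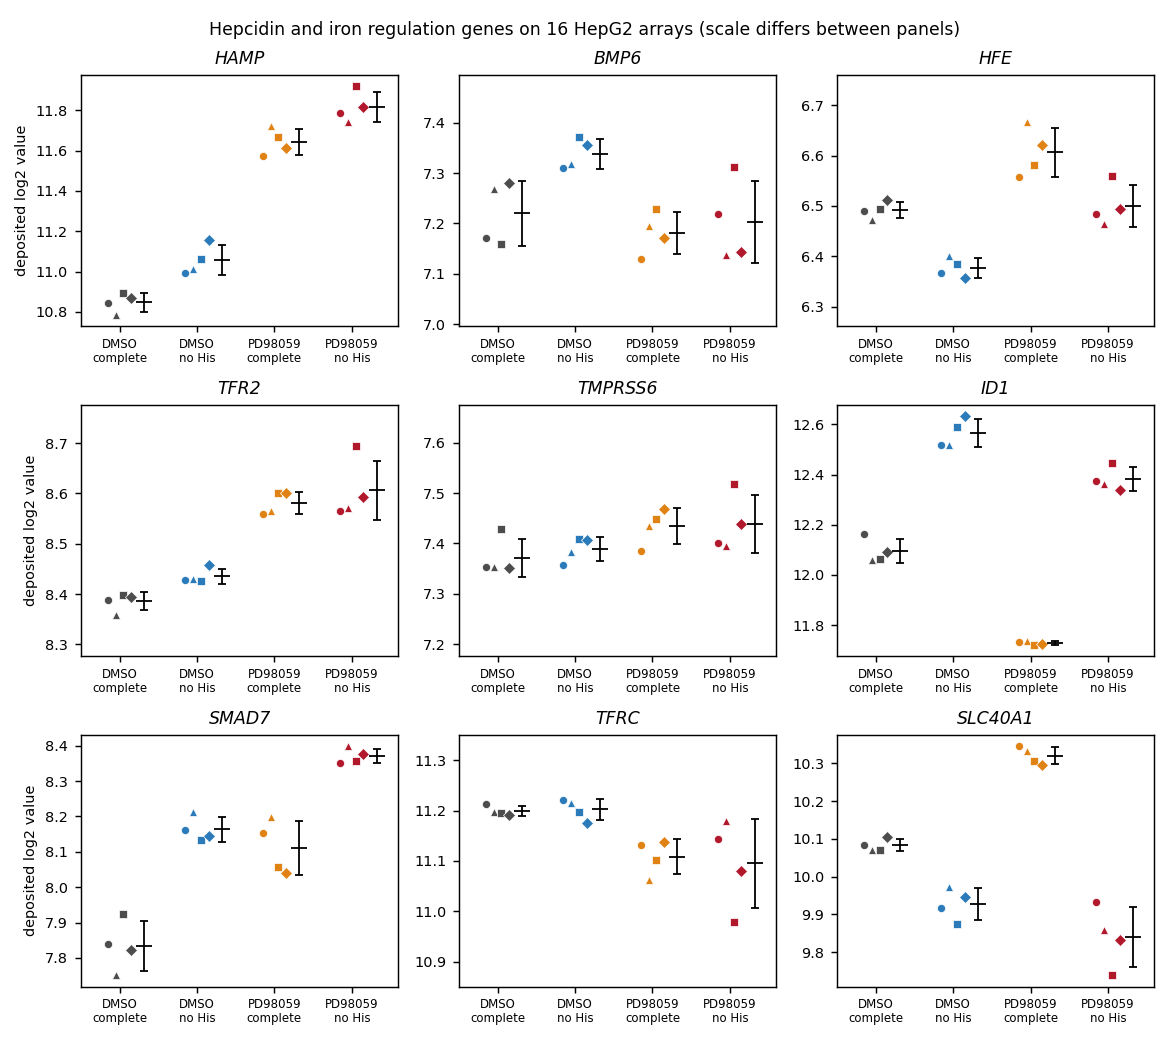
Deposited log2 value (y axis, own scale in each panel, spanning at least 0.5) of each of the 9 measured genes in the 4 groups (x axis), with 1 point per array, a point shape per replicate number, and bars at the group mean and SD (n = 4). HAMP and TFR2 were high in both PD98059 groups, ID1 was lowest with PD98059 in complete medium, and the square of the last group is the array that stood apart.

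BMP6, a BMP ligand made mainly by liver sinusoidal endothelial cells in animals, lay below the level of the median gene on these arrays and moved little. Its log2 values were 7.17, 7.27, 7.16 and 7.28 with DMSO in complete medium and 7.31, 7.32, 7.37 and 7.36 with DMSO without histidine, with no overlap. Depletion with DMSO raised BMP6 by 0.12 ± 0.040 (adjusted p = 0.0302). With PD98059 the values were 7.13, 7.20, 7.23 and 7.17 in complete medium and 7.22, 7.14, 7.31 and 7.14 without histidine, and these groups overlapped. The depletion difference with PD98059 was 0.02 (95% interval -0.06 to 0.11). In medium without histidine BMP6 fell by 0.14 with PD98059 (adjusted p = 0.0183), and by 0.17 without replicate 3 (adjusted p = 0.00149), though that replicate's value of 7.31 overlapped those with DMSO. The rise with depletion lost its call when any of replicates 1 and 3 of the DMSO complete-medium group or 3 and 4 of the DMSO depleted group was left out (adjusted p = 0.0707 to 0.0990), and the fall with PD98059 without DMSO replicate 3 or PD98059 replicate 2 or 4 of the depleted groups (adjusted p = 0.0553 to 0.0668).

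The sensors HFE and TFR2 were both higher with PD98059, and HFE was lower without histidine. HFE was dim, with a mean of 6.49 over all arrays, below the median gene at 7.42 and lowest of the measured members. Its differences were small, and its signal over background was not checked. HFE, an MHC class I-like protein that binds transferrin receptor 1, had log2 values of 6.49, 6.47, 6.49 and 6.51 with DMSO in complete medium and 6.37, 6.40, 6.38 and 6.36 without histidine. Every depleted array lay below every complete one, and HFE fell by 0.12 ± 0.028 (adjusted p = 0.00337). With PD98059 the values were 6.56, 6.67, 6.58 and 6.62 in complete medium and 6.48, 6.46, 6.56 and 6.49 without histidine, and replicate 3 of the depleted group reached the range of the complete one. HFE fell there by 0.11 (adjusted p = 0.00750), and by 0.13 without that replicate. PD98059 raised HFE by 0.11 in complete medium (adjusted p = 0.00914) and by 0.12 without histidine (adjusted p = 0.00281), with no overlap of arrays in either medium. Without replicate 3 the latter was 0.10 (adjusted p = 0.00506).

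TFR2, which encodes transferrin receptor 2, had log2 values of 8.39, 8.36, 8.40 and 8.39 with DMSO in complete medium and 8.43, 8.43, 8.43 and 8.46 without histidine. The depleted arrays lay above the complete ones, but the difference of 0.05 ± 0.027 was not called (adjusted p = 0.181). It was called when PD98059 replicate 3 without histidine was left out of the shared spread (adjusted p = 0.0417) and with array weights (adjusted p = 0.0328). With PD98059 TFR2 stood at 8.56, 8.56, 8.60 and 8.60 in complete medium and at 8.57, 8.57, 8.69 and 8.59 without histidine. All 8 PD98059 arrays were above all 8 DMSO arrays. TFR2 rose with PD98059 by 0.20 ± 0.027 in complete medium (1.15-fold, adjusted p = 9.77e-05) and by 0.17 ± 0.027 without histidine (1.13-fold, adjusted p = 0.000172), or 0.14 without replicate 3 (adjusted p = 6.00e-05).

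TMPRSS6, which encodes matriptase-2, a protease that cleaves the BMP coreceptor hemojuvelin, was called in 0 of the 5 comparisons. Its values ran from 7.35 to 7.43 with DMSO in complete medium and from 7.36 to 7.41 without histidine. With PD98059 they ran from 7.39 to 7.47 in complete medium and from 7.39 to 7.52 without histidine, so all 4 groups overlapped. Its difference with PD98059 was 0.06 in complete medium (95% interval -0.0023 to 0.13, adjusted p = 0.229) and 0.05 without histidine (95% interval -0.02 to 0.11, adjusted p = 0.314), and the latter was 0.02 without replicate 3.

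The BMP targets ID1 and SMAD7 both rose without histidine, and PD98059 moved them in opposite directions. ID1 encodes an inhibitor of DNA binding, a dominant-negative partner of helix-loop-helix factors, and is a widely used readout of BMP signalling. With DMSO it had log2 values of 12.16, 12.06, 12.06 and 12.09 in complete medium and 12.52, 12.52, 12.59 and 12.63 without histidine. With PD98059 ID1 stood at 11.73, 11.74, 11.72 and 11.72 in complete medium and at 12.38, 12.36, 12.45 and 12.34 without histidine. None of the 4 groups overlapped with another, and the order from low to high was PD98059 complete, DMSO complete, PD98059 depleted and DMSO depleted.

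ID1 rose with depletion by 0.47 ± 0.033 with DMSO (1.39-fold, adjusted p = 8.54e-09) and by 0.65 ± 0.033 with PD98059 (1.57-fold, adjusted p = 3.28e-10), or 0.63 without replicate 3. PD98059 lowered ID1 in complete medium, to 0.777 of its level with DMSO (adjusted p = 8.87e-07), and without histidine to 0.881 of it (adjusted p = 0.000430). On the log2 scale the latter difference was -0.18, and -0.21 without replicate 3. The depletion response was larger with PD98059 by 0.18 ± 0.046 (adjusted p = 0.0289), and by 0.16 without replicate 3 (adjusted p = 0.0224). That difference of responses lost its call when any of replicates 1 and 4 of the DMSO complete-medium group, 1 and 2 of the DMSO depleted group or 2, 3 and 4 of the PD98059 complete-medium group was left out (0.16 to 0.18, adjusted p = 0.0501 to 0.0677). It was also not called after another quantile normalization (adjusted p = 0.0577).

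SMAD7, an inhibitory SMAD that feeds back on the pathway, had log2 values of 7.84, 7.75, 7.92 and 7.82 with DMSO in complete medium and 8.16, 8.21, 8.13 and 8.15 without histidine. With PD98059 the values were 8.15, 8.20, 8.06 and 8.04 in complete medium and 8.35, 8.40, 8.36 and 8.38 without histidine. SMAD7 was thus lowest with neither treatment and highest with both, and the groups with 1 treatment each overlapped. Depletion raised it by 0.33 ± 0.039 with DMSO (1.26-fold, adjusted p = 4.25e-06) and by 0.26 with PD98059 (1.20-fold, adjusted p = 7.32e-05). PD98059 raised it by 0.28 in complete medium (1.21-fold, adjusted p = 9.99e-05) and by 0.21 without histidine (1.16-fold, adjusted p = 0.000697). Without replicate 3 the depletion difference with PD98059 was 0.26 and the PD98059 difference without histidine 0.21.

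**Figure D2:**
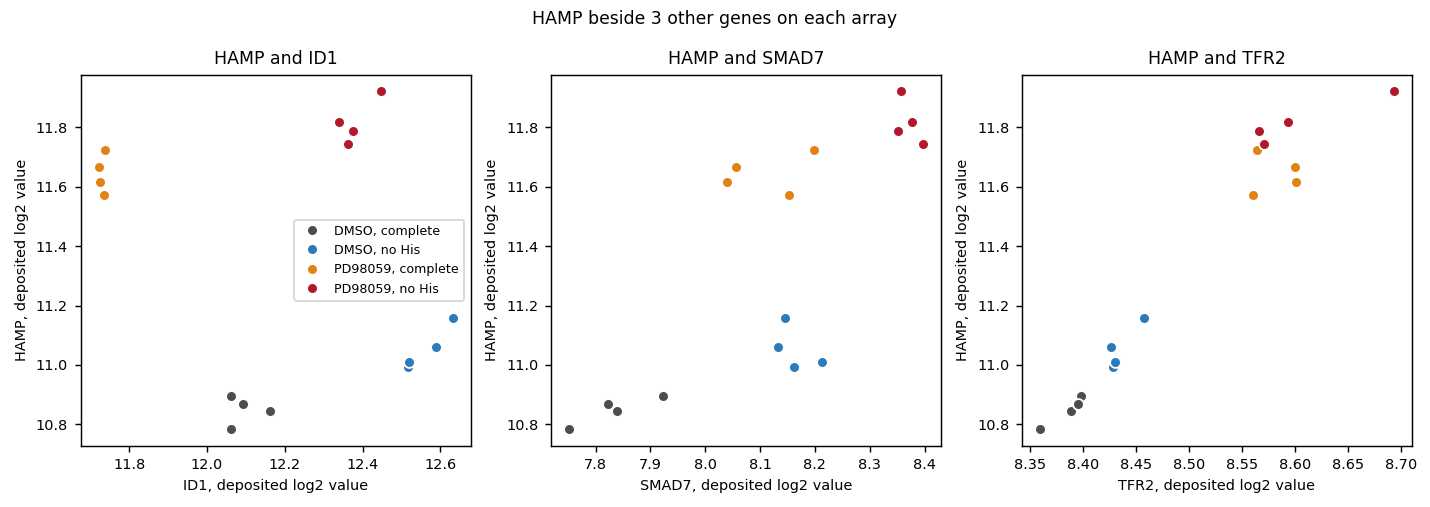
HAMP log2 value (y axis) against that of ID1, SMAD7 and TFR2 (x axes) on each of the 16 arrays, coloured by group. HAMP was high in both PD98059 groups, where ID1 was below the DMSO group of the same medium and SMAD7 and TFR2 were above it.

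Of the transport genes, TFRC changed little, and the response of SLC40A1 to either treatment depended on the other. TFRC encodes transferrin receptor 1, the main importer of transferrin-bound iron, whose messenger RNA is stabilised when a cell lacks iron. Its values ran from 11.19 to 11.21 with DMSO in complete medium and from 11.18 to 11.22 without histidine, a difference of 0.0029 (95% interval -0.07 to 0.08). With PD98059 it had 11.13, 11.06, 11.10 and 11.14 in complete medium and 11.14, 11.18, 10.98 and 11.08 without histidine. All 4 PD98059 arrays in complete medium lay below the DMSO ones, but the difference of -0.09 ± 0.035 was not called (adjusted p = 0.106). It was called when replicate 3 of PD98059 without histidine was left out of the shared spread (adjusted p = 0.0139), with array weights (adjusted p = 0.0114), with only the compared groups (adjusted p = 0.0290) and after another quantile normalization (adjusted p = 0.0489). Without histidine TFRC fell by 0.11 with PD98059 (adjusted p = 0.0343), on overlapping arrays, and by 0.07 without replicate 3 of PD98059 (adjusted p = 0.0581). That call was lost without replicate 1, 2 or 3 of DMSO or replicate 3 or 4 of PD98059 in that medium (adjusted p = 0.0581 to 0.0858).

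SLC40A1 encodes ferroportin, the iron exporter that hepcidin binds. Its log2 values were 10.08, 10.07, 10.07 and 10.10 with DMSO in complete medium and 9.92, 9.97, 9.87 and 9.95 without histidine. With PD98059 they were 10.34, 10.33, 10.31 and 10.30 in complete medium and 9.93, 9.86, 9.74 and 9.83 without histidine. The complete-medium group with PD98059 was the highest, and the depleted groups of both drugs overlapped at the bottom. PD98059 raised SLC40A1 by 0.24 ± 0.034 in complete medium (1.18-fold, adjusted p = 0.000128). Without histidine its difference was -0.09 ± 0.034 (adjusted p = 0.0804), and -0.05 without replicate 3 (adjusted p = 0.162). SLC40A1 was called lower without PD98059 replicate 1 of that medium (-0.12, adjusted p = 0.0125) and when dim genes were left out of the adjustment (adjusted p = 0.0427).

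Histidine depletion lowered SLC40A1 by 0.16 with DMSO, to 0.898 of its level (adjusted p = 0.00170). With PD98059 depletion lowered it to 0.717 of its level (-0.48 ± 0.034, adjusted p = 2.12e-08), and the difference was -0.45 without replicate 3. The responses differed by -0.32 ± 0.048 (adjusted p = 0.000614), and by -0.29 without replicate 3 (adjusted p = 0.000226).

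Over the 9 measured members, depletion with DMSO raised 4 (HAMP, BMP6, ID1 and SMAD7) and lowered 2 (HFE and SLC40A1). Of all 22464 genes, 14.8% were called higher and 18.4% lower in that comparison. Depletion with PD98059 raised 3 members (HAMP, ID1 and SMAD7) and lowered the same 2, against 12.0% and 15.3% of all genes. PD98059 in complete medium, the comparison in which HAMP was already known, had 5 members higher (HAMP, HFE, TFR2, SMAD7 and SLC40A1) and 1 lower (ID1), beside 7.59% and 6.74% of all genes. Leaving HAMP aside, 4 of 8 were higher and 1 lower. Without histidine 4 members were higher with PD98059 (HAMP, HFE, TFR2 and SMAD7) and 3 lower (BMP6, ID1 and TFRC), against 13.5% and 10.9%. The difference of responses was called higher for 1 member (ID1) and lower for 1 (SLC40A1), against 2.91% and 2.83%.

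In the same order of comparisons, the median log2 difference of the members was 0.05, 0.02, 0.11, 0.05 and -0.03, and that of all genes 0.03, 0.0032, 0.01, -0.0063 and -0.02. The median of 0.11, for PD98059 in complete medium, includes HAMP, whose difference was known when the genes were chosen. Without replicate 3 of PD98059 without histidine, 5 members were higher and 2 lower for depletion with DMSO. The counts were also 5 and 2 for PD98059 in complete medium, with the known difference of HAMP among the 5. Neither comparison holds that array, but both share its estimate of spread. For depletion with PD98059 the counts were then 3 and 2, for PD98059 without histidine 4 and 2, and for the difference of responses 1 and 1.

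**Figure D3:**
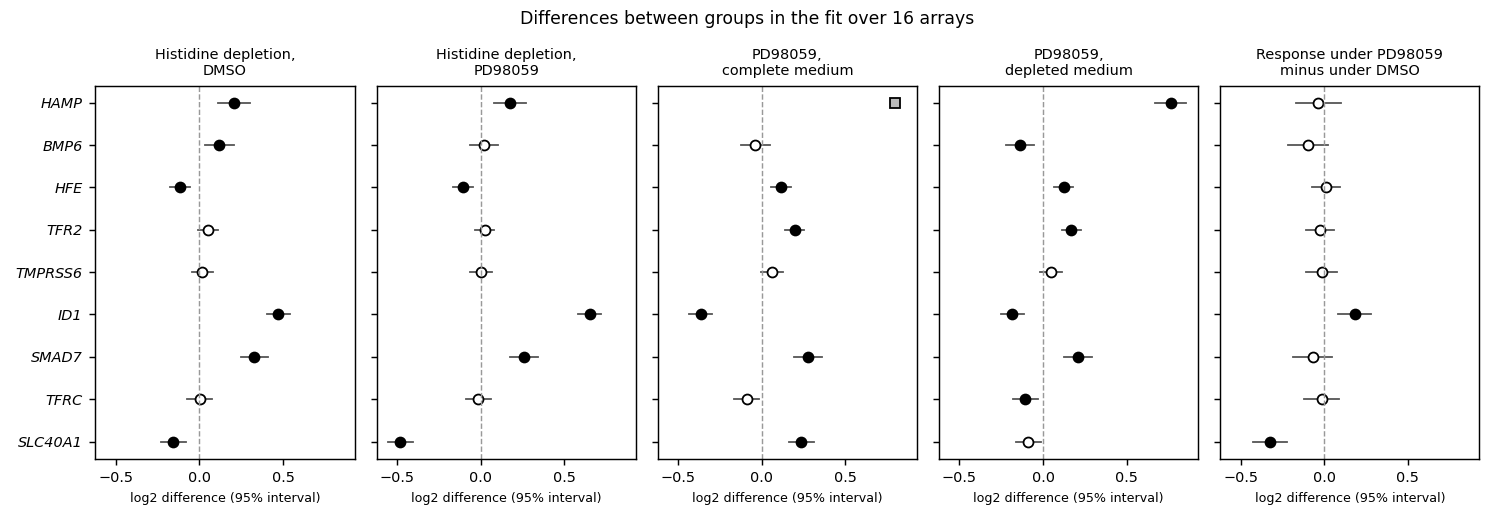
Fitted log2 difference (x axis) of each measured gene (y axis) in the 5 comparisons, with 95% intervals from the fit over 16 arrays. Filled circles passed the adjusted p of 0.05, open circles did not, and the grey square, with no interval, is the HAMP difference that was known when the genes were chosen. ID1 and SLC40A1 carry the filled circles in the last panel, at 0.18 and -0.32.

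The genes whose pattern over the 16 arrays was most like that of HAMP were found among 10665 genes above the median level, by Pearson's r with the HAMP values, as a description of 4 separated groups. SLC38A3, which encodes an amino acid transporter that carries glutamine and histidine, was nearest, with r = 0.994 (Spearman's rho 0.985). Its group means were 10.82 and 10.93 with DMSO and 11.27 and 11.35 with PD98059, complete medium first. TFR2 followed (r = 0.972), then the cytochrome P450 gene CYP4F12 (r = 0.971), the scaffold gene DLG3 (r = 0.970) and TP53I3, a p53-induced oxidoreductase (r = 0.968). Around the group means, r with HAMP was 0.674 for SLC38A3, 0.673 for TFR2, 0.607 for CYP4F12, 0.387 for TP53I3 and -0.14 for DLG3. These values include replicate 3 of PD98059 without histidine, the highest array for both HAMP (11.92) and TFR2 (8.69), and were not computed without it. Most opposite was TGFBR3, the coreceptor betaglycan (r = -0.988), whose group means were 10.59 and 10.41 with DMSO and 9.79 and 9.65 with PD98059. GMDS (r = -0.968) and CD58 (r = -0.967) came next.

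Other genes of iron handling were taken from 5 lists that, like the members, were chosen with earlier results of these arrays known. For each comparison the called genes with the lowest p were named, so a gene named in 1 comparison can be called in others too. Of 24 measured BMP and SMAD signalling genes, depletion with DMSO raised 9 and lowered 4, against 14.8% and 18.4% of all genes, with a median of 0.08. FURIN, a convertase that processes hepcidin and hemojuvelin, rose by 0.60 (adjusted p = 1.64e-10), and ACVR1, a type I BMP receptor, by 0.48 (adjusted p = 1.77e-09). ID2, a relative of ID1, rose by 0.36 (adjusted p = 1.69e-09). Depletion with PD98059 raised 8 and lowered 0, against 12.0% and 15.3%, also without replicate 3, with a median of 0.05. BAMBI, a decoy receptor of the family, rose there by 0.82 (adjusted p = 1.02e-11), ACVR1 by 0.48 and FURIN by 0.44.

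PD98059 raised 4 and lowered 4 BMP and SMAD genes in complete medium, against 7.59% and 6.74% of all genes, and raised 5 and lowered 6 without histidine, against 13.5% and 10.9%. In complete medium the ligand gene BMP4 fell by 0.36 (adjusted p = 1.96e-07) and BAMBI by 0.26, while ID2 rose by 0.28 (adjusted p = 1.64e-07), unlike ID1. Without histidine SMAD9, a BMP-activated SMAD, rose by 0.53 (adjusted p = 2.12e-08) and SMAD6, an inhibitory SMAD, by 0.36 (adjusted p = 3.17e-06), while the receptor ACVR2B fell by 0.27 (adjusted p = 2.12e-06). The depletion response differed between PD98059 and DMSO for 8 of the 24, 4 in each direction, against 2.91% of all genes higher and 2.83% lower. The rise of BAMBI was larger with PD98059 by 0.48 (adjusted p = 5.43e-06). BMP4 fell by 0.12 with depletion under DMSO and rose by 0.20 under PD98059, a difference of 0.32 (adjusted p = 0.000101). For ID2 the difference was -0.36 (adjusted p = 2.85e-06). ID2 had group means of 9.32 with DMSO in complete medium and 9.68, 9.60 and 9.60 in the other 3 groups. Without replicate 3, PD98059 without histidine raised 8 and lowered 7 of these genes, and the difference of responses was called for 6 higher and 5 lower. The shares of all genes above come from the fit over all arrays, and none is given for the fit without replicate 3. These larger counts therefore cannot be read as particular to this list.

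Among 11 other regulators of hepcidin, depletion with DMSO raised 5 and lowered 1, against 14.8% and 18.4% of all genes, and with PD98059 raised 3 and lowered 3, against 12.0% and 15.3%. GDF15, a stress-induced cytokine, rose by 1.23 with DMSO (adjusted p = 7.37e-13) and by 1.03 with PD98059 (adjusted p = 1.17e-11). CREB3L3, a liver factor reported in mice to act on the hepcidin gene, fell by 0.33 and 0.37 in the same order (adjusted p = 6.81e-07 and 3.42e-07), while HAMP rose in both. PD98059 raised 6 and lowered 1 in complete medium, against 7.59% and 6.74%, and raised 3 and lowered 3 without histidine, against 13.5% and 10.9%. With it CREB3L3 rose by 0.69 in complete medium (adjusted p = 7.33e-10) and by 0.66 without histidine (adjusted p = 5.01e-10), and CEBPA, a liver transcription factor, by 0.25 and 0.37 (adjusted p = 0.000856 and 7.69e-06). GDF15 fell with PD98059 by 0.54 in complete medium and by 0.74 without histidine. The difference of responses was called lower for 3 and higher for 0, against 2.83% and 2.91% of all genes. The 3 were STAT3 at -0.21 (adjusted p = 0.000231), the interleukin receptor gene IL6R at -0.27 (adjusted p = 0.00127) and GDF15 at -0.20 (adjusted p = 0.0439). The call of GDF15 was lost on leaving out any 1 of 14 of the 16 arrays, all but PD98059 replicates 1 and 3 without histidine (adjusted p = 0.0517 to 0.0950). STAT3 rose by 0.10 with depletion under DMSO and fell by 0.11 under PD98059. Without replicate 3, the counts of these regulators were 3 higher and 4 lower for depletion with PD98059. They were 7 and 2 for PD98059 in complete medium, a comparison that does not hold that array but shares its estimate of spread. For PD98059 without histidine they were 4 and 4, and for the difference of responses 1 (JAK2, 0.22, adjusted p = 0.0259) and 4.

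Of 15 measured genes of heme synthesis, breakdown and transport, depletion with DMSO lowered 9 and raised 0, where 18.4% of all genes were lower and 14.8% higher, with a list median of -0.11. Depletion with PD98059 lowered 10 and raised 1, where 15.3% were lower and 12.0% higher, with a median of -0.12, and lowered 12 and raised 1 without replicate 3. HP, the haemoglobin scavenger haptoglobin, fell by 0.55 with DMSO and by 0.32 with PD98059 (adjusted p = 1.69e-09 and 1.29e-06). The synthesis enzyme gene CPOX fell by 0.48 and 0.31 in the same order (adjusted p = 5.70e-08 and 1.10e-05). ALAS1, the rate-limiting enzyme of hepatic heme synthesis, fell by 0.27 with DMSO (adjusted p = 4.96e-06) and by 0.15 with PD98059 (adjusted p = 0.00204), or 0.13 without replicate 3. FLVCR1, a transporter reported to export heme, fell by 0.33 with DMSO (adjusted p = 4.19e-05) and by 0.31 with PD98059 (adjusted p = 0.000114). PD98059 raised 4 and lowered 0 in complete medium, against 7.59% and 6.74%, and raised 7 and lowered 1 without histidine, against 13.5% and 10.9%, or 7 and 0 without replicate 3. HPX, the heme scavenger hemopexin, rose by 0.47 in each medium (adjusted p = 3.74e-07 and 1.49e-07), the synthesis enzyme ALAD by 0.25 and 0.34, and HMOX1, the heme-degrading oxygenase, by 0.25 and 0.30. Without replicate 3, 7 heme genes were called higher with PD98059 in complete medium. That comparison does not hold the array but shares its estimate of spread, and no share of all genes is given for it. With all arrays the difference of responses was called higher for 1 gene (HP, 0.22, adjusted p = 0.00883) and lower for 0, against 2.91% and 2.83% of all genes. It was called for 3 higher and 1 lower without replicate 3.

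**Figure D4:**
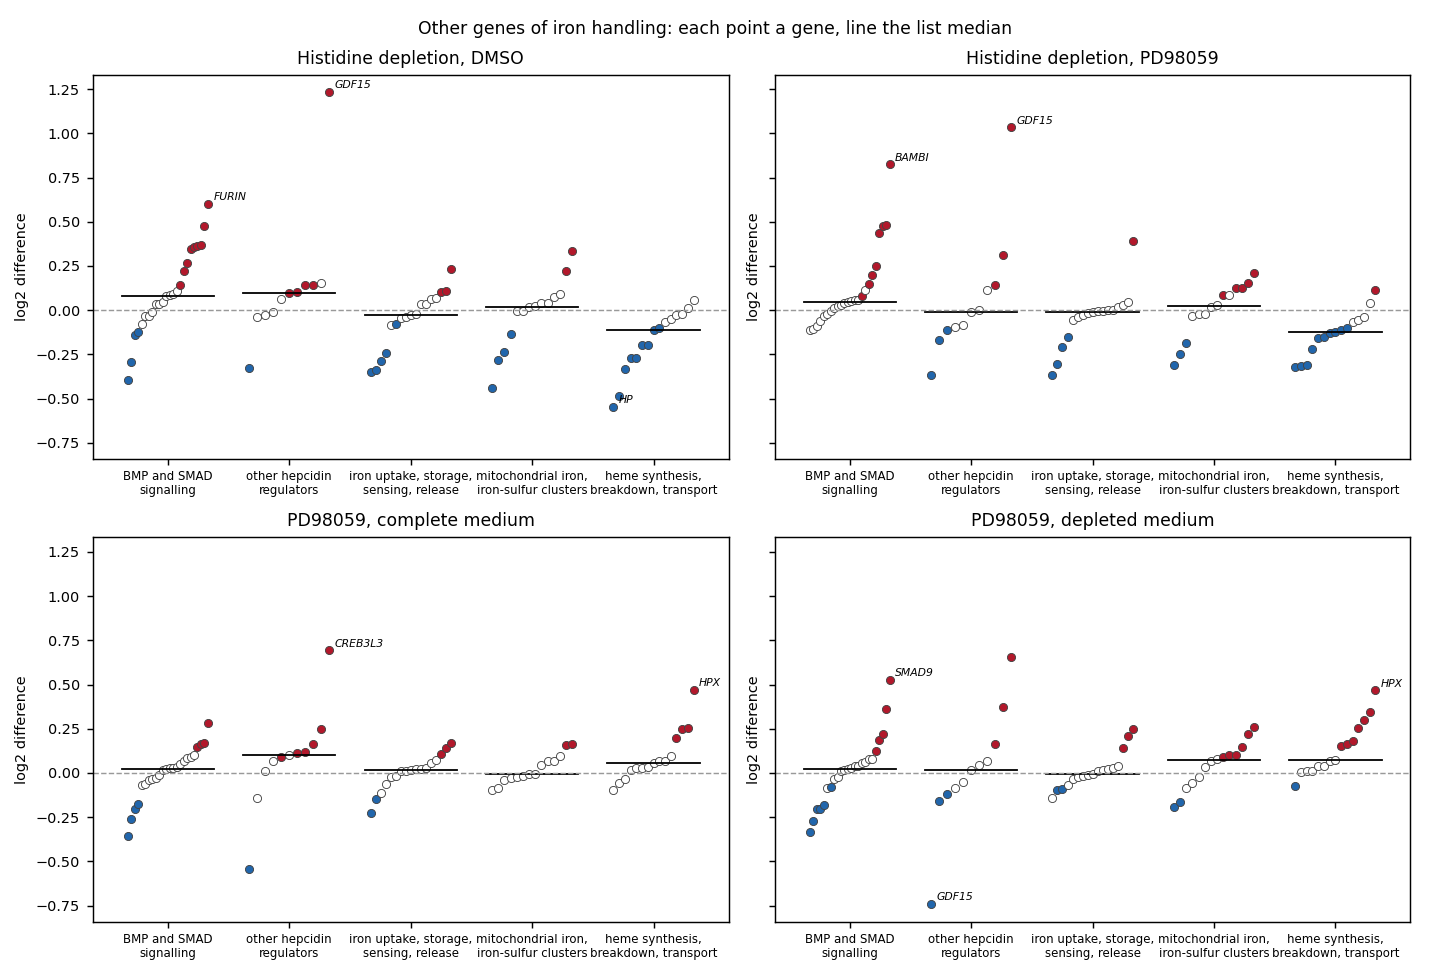
Fitted log2 difference (y axis) of every measured gene of the 5 iron lists (x axis) in the 4 pairwise comparisons, with red points called higher, blue lower and white not called, and a black line at the list median. The heme genes sit mostly below 0 in both depletion panels, and GDF15, at 1.23 and 1.03, stands apart among the hepcidin regulators.

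Of 17 genes of iron uptake, storage, sensing and release, depletion raised 3 and lowered 5 with DMSO, against 14.8% and 18.4% of all genes, so that the rises are near the background, and raised 1 and lowered 4 with PD98059, where 12.0% and 15.3% of all were called. STEAP3, a reductase of endosomal iron, fell by 0.35 with DMSO and by 0.31 with PD98059, and ACO1, the iron sensor also known as iron regulatory protein 1, by 0.25 and 0.21. The iron transporter gene SLC11A2 fell by 0.29 with DMSO, and STEAP2 rose by 0.39 with PD98059 (adjusted p = 1.11e-07). STEAP2 was dim, with group means of 7.10 to 7.56 where the median gene lay at 7.42, and the filter on dim genes removed it. SLC11A2 was also called lower with PD98059 (-0.17 to -0.13 over the alternative settings) and STEAP2 higher with DMSO (0.21 to 0.25). PD98059 raised 3 and lowered 2 in each medium, against 7.59% and 6.74% of all genes in complete medium and 13.5% and 10.9% without histidine. Without replicate 3 the counts were the same for depletion with PD98059 and for PD98059 without histidine. It raised ACO1 by 0.17 in complete medium and by 0.21 without histidine, and the importer gene SLC39A14 by 0.14 in complete medium, where STEAP2 fell by 0.22. Without histidine it raised SLC11A2 by 0.25 and FBXL5, an iron-sensing ubiquitin ligase subunit, by 0.14. The difference of responses was called lower for SLC39A14 (-0.12, adjusted p = 0.0265) and PCBP1, an iron chaperone (-0.16, adjusted p = 0.0344), and higher for 0. Of all genes, 2.83% were called lower and 2.91% higher. Leaving out 1 array ended the call of SLC39A14 for 7 of the 16 arrays (adjusted p = 0.0509 to 0.0621) and that of PCBP1 for 9 (adjusted p = 0.0535 to 0.0805), replicate 4 of PD98059 without histidine among both. Without replicate 3 of that group the difference was called for 3 genes higher and 2 lower.

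Of 14 genes of mitochondrial iron and iron-sulfur clusters, depletion raised 2 and lowered 4 with DMSO, against 14.8% and 18.4% of all genes, and raised 5 and lowered 3 with PD98059, against 12.0% and 15.3%. The 2 raised with DMSO and the 3 lowered with PD98059 are near those shares. NFS1, the cysteine desulfurase that supplies sulfur to clusters, fell by 0.44 with DMSO and by 0.31 with PD98059 (adjusted p = 9.96e-09 and 8.74e-07), and the chaperone gene HSPA9 rose by 0.33 and 0.21. ISCA2, an assembly factor, fell by 0.28 with DMSO, and ISCU, the assembly scaffold, by 0.25 with PD98059. ISCA2 was also called lower with PD98059 (-0.22 to -0.14 over the alternative settings) and ISCU with DMSO (-0.25 to -0.22). PD98059 raised 2 and lowered 0 in complete medium, ISCU by 0.16 and ISCA2 by 0.16, against 7.59% and 6.74% of all genes, and raised 6 and lowered 2 without histidine, against 13.5% and 10.9%. There NFS1 rose by 0.22, ISCA2 rose by 0.26 and HSPA9 fell by 0.16. IBA57, another assembly factor, was the 1 gene called for the difference of responses (-0.24, adjusted p = 0.0419), and 0 were higher, against 2.83% of all genes lower and 2.91% higher. Its call was lost on leaving out any 1 of 13 of the 16 arrays (adjusted p = 0.0552 to 0.0947), and that of ISCA2 with PD98059 in complete medium without DMSO replicate 2 or PD98059 replicate 1 (adjusted p = 0.0506 and 0.0523). Without replicate 3 of PD98059 without histidine, 4 genes were higher and 3 lower for depletion with PD98059, 7 and 2 for PD98059 without histidine, and 1 and 1 for the difference of responses. Then 5 were higher and 1 lower with PD98059 in complete medium, a comparison that does not hold that array but shares its estimate of spread.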

How the data were processed

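Biotin-labelled cDNA from total RNA of HepG2 cells was measured on 1-colour Affymetrix arrays, per the labels' protocols. The authors deposited log2 expression values, 1 column per array, and the submitters' processing notes name RMA, Partek 6.6 and build hg19 with no further settings, and no settings are given in the sources used here. In its usual form RMA compresses small signals and gives all arrays nearly the same distribution, so differences are relative to the other genes of an array. The table held 70459 rows with 0 missing values, and array medians of 6.20 to 6.28. Signal over background was not checked, since no scanner file was used here. The number of arrays limits the precision.

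Rows were named from the platform annotation, in which 23780 rows had 1 symbol, 1543 several and 45136 were unnamed and rows with several were not used. Of the rows with 1 symbol, 21496 matched the RefSeq gene table by Entrez identifier, which changed 0 symbols. Where a symbol had several rows (479 symbols), the row with the highest mean over all 16 arrays was kept, which left 22464 genes. A linear model of the 4 group means over all 16 arrays was fitted in limma 3.58.1 (R 4.3.3), with Benjamini-Hochberg adjustment over all genes. The difference of responses is the depletion response under PD98059 minus that under DMSO. The fit was tested on simulated data.

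The members and lists were chosen with earlier results of these data known. Named genes were all members, up to 3 called genes with the lowest p from each list and comparison, and the 5 genes most and 3 most opposite in correlation with HAMP among genes above the median level, without uncharacterised loci and small RNAs; JAK2 was named after its values were seen, and some cell type markers are named. Listed genes without a row of their own symbol were not analysed here. Alternatives were a replicate block, only the compared groups, an intensity trend with robust variance, leaving out dim genes, a repeated quantile normalization, median shifts, averaging the rows of a symbol, testing every row, array weights, an adjusted p of 0.01 and leaving out each array.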

Additional observations from a re-analysis of the deposited data

Results flagged for a closer look

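The value of TFR2 in replicate 4 of DMSO without histidine was 8.457, against 8.427 to 8.43 in the other 3 replicates, and that of TMPRSS6 in replicate 3 of DMSO in complete medium was 7.429, against 7.351 to 7.353. In both groups the gap to the nearest array, as a share of the group's range, exceeded Dixon's 95% limit for 4 values. Of 36 groups of member values, 2 were marked in this way, and chance marks about 1 in 20. The response of ID1 to histidine depletion was larger under PD98059 than under DMSO by 0.182 on the log2 scale, and that of SLC40A1 differed by -0.324, each past the threshold of the limma interaction test.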

How the results depend on the processing

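The 44 tested differences of the 9 measured members, which leave out that of HAMP with PD98059 in complete medium, were recomputed under 26 settings. Of 1120 values, 1058 kept their direction and their side of the threshold. Of the 25 called differences, 20 did so under every setting that could be run, the other 3 pairwise differences of HAMP among them. The number of members whose response differed between PD98059 and DMSO was 2, and 1 after another quantile normalization, with every row tested and at an adjusted p of 0.01, with SLC40A1 called each time. Leaving out 1 array gave 1 to 2. The difference of responses of HAMP, not called at -0.03, was 0.01145 after another quantile normalization.

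Other changes of sign fell on differences near 0 that were not called. With array weights they were -0.01788 (BMP6), -0.005834 (TFR2), -0.03074 (TMPRSS6) and 0.01167 (TFRC) for depletion with PD98059, and -0.007663 (HFE) and 0.00574 (TFRC) for the difference of responses. After another quantile normalization TFRC had -5.313e-05 for depletion with DMSO, 0.005371 with PD98059 and 0.005424 for the difference of responses, and -0.003943 for depletion with DMSO after shifting the arrays to 1 median. Leaving out 1 array, depletion with PD98059 ran from -0.01504 to 0.04307 for BMP6, from -0.004624 to 0.03786 for TFR2, from -0.02265 to 0.01887 for TMPRSS6 and from -0.04095 to 0.02622 for TFRC. TFRC with depletion and DMSO ran from -0.0033 to 0.01173. The difference of responses ran from -0.01022 to 0.02941 for HFE, from -0.04385 to 0.02332 for TFRC and from -0.04065 to 0.0008667 for TMPRSS6. The cause of these changes was not tested.

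Other lost calls were BMP6 for depletion with DMSO with every row tested (adjusted p = 0.0651), BMP6, TFRC and HFE with only the compared groups (0.0510 and 0.137 for PD98059 without histidine, 0.0680 for depletion with PD98059), and TFRC for PD98059 without histidine after median shifts (0.103) and with every row (0.0886). Array weights added calls for TFRC (adjusted p = 0.0114) and TMPRSS6 (0.0239) with PD98059 in complete medium and for TFR2 (0.0328) for depletion with DMSO. Of 159 called differences of listed genes, 119 kept their call under every setting and 0 changed sign. The listed genes called numbered 26 with PD98059 in complete medium, against 42 with array weights and 17 after median shifts. For the difference of responses they numbered 15, against 32 with array weights and 27 without replicate 3 of PD98059 without histidine. No share of all genes is given under these alternative settings, so the changed counts cannot be read as particular to the listed genes.

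With the replicate block the members called in the 5 comparisons numbered 6, 5, 6, 7 and 2, as without it, and the difference of responses was called for 16 of 81 listed genes. The share of all genes called with the block is not given. Over all genes, arrays of the same number in different groups correlated by a median of 0.0532 around their group means, against -0.0237 for other numbers, and 6 of 16 arrays correlated best with their own number, so the numbers were not taken as pairs. The filter on dim genes removed BMP6, HFE and TMPRSS6, and a fit of only the compared groups gives no difference of responses.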
